A study of Arabidopsis thaliana with 2 samples.

Results

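The 9 genes described here are the indolic glucosinolate genes CYP79B2, CYP79B3, CYP83B1, SUR1, UGT74B1, SOT16 and CYP81F2, which encode enzymes, and MYB34 and MYB51, which encode transcription factors. Some of the enzymes also serve other glucosinolates. The genes were chosen as a fixed list of loci, and all 9 were among the 21825 loci with reads in the deposited expression table. RNA sequencing covered 2 libraries of Arabidopsis thaliana whole seedlings of the Columbia (Col) ecotype, 1 from wild type and 1 from the ARF18 overexpression line 35S-ARF18-OE-2. ARF18 is one of the auxin response factors, transcription factors that bind the promoters of auxin-regulated genes. 35S names a broadly active viral promoter, and the labels name a single line. Both libraries were labelled as 7-day-old plants, while the growth protocol describes seedlings moved from darkness at 4 days of age to white light for 7 days, so the age at harvest is not settled by the labels. Both genotypes shared this regime. No treatment was given in the labels.

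Indolic glucosinolates are sulfur-containing defence compounds made from the amino acid tryptophan. CYP79B2 and CYP79B3 are cytochromes P450 that turn tryptophan into indole-3-acetaldoxime. This aldoxime is also a source of the phytoalexin camalexin and of auxin. CYP83B1 oxidises the aldoxime and so commits it to glucosinolates, the C-S lyase SUR1 cleaves the sulfur conjugate, the glucosyltransferase UGT74B1 adds glucose and the sulfotransferase SOT16 adds sulfate. CYP81F2 then hydroxylates the indole ring. MYB34 and MYB51 are R2R3-type MYB activators of these genes. Arabidopsis mutants of SUR1 or CYP83B1 are known for high auxin levels and extra roots.

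Since each genotype was sequenced as 1 library, genotypes were not tested against each other and nothing could be checked on replicates. All values describe these 2 libraries, and intervals cover counting error only. Counted reads came to 7059226 in wild type and 6824188 in the line. ARF18 itself had 97 counts in the wild-type library and 472 in that of the overexpression line, a count ratio of 5.03 (95% exact conditional binomial interval 4.04 to 6.33). Count ratios here and below are scaled to the library totals, overexpression over wild type. Levels are RPKM values, that is reads corrected for the length of the transcript and the depth of the library. A fold difference was measured as the log2 ratio of (RPKM + 1), which understates the difference of low genes.

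The DNA upstream of the members is shown because auxin response factors bind DNA motifs, and because CYP79B2 and CYP79B3 share a block of it. Whether this block bears on their levels was not tested. Each sequence is the 250 bases before the annotated gene start in RefSeq TAIR10.1, written 5′ to 3′ on the strand of the gene. No window overlapped an annotated exon of another gene, and CYP79B2, CYP79B3 and SUR1 each have another annotated transcript that begins further downstream. In the CYP79B2 window (chr4:18524792-18525041, plus strand) and the CYP79B3 window (chr2:9488163-9488412, plus strand), capitals mark exact runs of 15 or more bases that both windows hold.
CYP79B2: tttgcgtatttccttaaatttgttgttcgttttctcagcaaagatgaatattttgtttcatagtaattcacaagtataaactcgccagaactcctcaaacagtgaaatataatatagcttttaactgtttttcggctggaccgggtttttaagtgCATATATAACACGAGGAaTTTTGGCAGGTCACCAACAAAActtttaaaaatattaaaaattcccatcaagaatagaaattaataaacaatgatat
CYP79B3: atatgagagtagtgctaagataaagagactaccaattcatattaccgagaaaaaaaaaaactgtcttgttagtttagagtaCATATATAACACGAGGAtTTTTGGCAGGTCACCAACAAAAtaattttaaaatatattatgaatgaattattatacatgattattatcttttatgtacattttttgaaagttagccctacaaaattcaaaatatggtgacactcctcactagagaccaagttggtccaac
The 2 runs, of 17 and 22 bases, form a block of 40 bases that differs at 1 base. It lies 95 to 56 bases before the start of CYP79B2 and 169 to 130 bases before that of CYP79B3. Each run was found on either strand in 2 of 15068 windows of expressed nuclear genes, those of this pair. Among the other 35 pairs of member windows, the longest shared run was 7 to 13 bases.

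The windows of UGT74B1, the member with the lowest ratio, and of CYP81F2, the member with the highest ratio among those with a single transcript model, follow. Capitals mark matches on either strand to TGTCTC and TGTCGG (auxin response elements), CACGTG (the G-box bound by bHLH factors such as MYC proteins), and TTGACC and TTGACT (W-boxes, bound by WRKY factors).
UGT74B1: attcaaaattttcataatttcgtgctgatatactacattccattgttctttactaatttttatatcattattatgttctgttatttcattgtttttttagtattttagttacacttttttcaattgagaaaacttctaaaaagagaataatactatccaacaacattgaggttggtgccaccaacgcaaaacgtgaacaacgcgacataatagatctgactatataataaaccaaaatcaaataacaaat
CYP81F2: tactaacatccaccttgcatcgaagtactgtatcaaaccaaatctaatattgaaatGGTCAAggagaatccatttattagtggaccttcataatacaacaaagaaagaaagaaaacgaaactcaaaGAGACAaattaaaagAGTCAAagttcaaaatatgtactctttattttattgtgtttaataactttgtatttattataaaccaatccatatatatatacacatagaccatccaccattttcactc
UGT74B1 (chr1:8527088-8527337, minus strand) held no match. CYP81F2 (chr5:23187590-23187839, plus strand) held TGTCTC on the minus strand 124 to 119 bases before its start, TTGACC at 194 to 189 and TTGACT at 109 to 104, also on the minus strand. None of these matches overlap. Of the 9 member windows, 1 held TGTCTC and none TGTCGG, and 14.8% of the 15068 windows held either. CACGTG was in 1 member window, that of SUR1 at 50 to 45 bases before its start, and in 7.15% of all windows. TTGACC was in 1 member window and 12.0% of all, and TTGACT in 2 member windows, those of SUR1 and CYP81F2, and 18.8% of all. A match is a stretch of letters and shows neither binding nor its absence.

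Enzymes of the same pathway went different ways in the overexpression library. The genes of the entry step, CYP79B2 and CYP79B3, and of glucosylation, UGT74B1, were lower, and CYP83B1 differed by less than counting error. CYP81F2, SUR1 and, slightly, SOT16 were higher. Adjusted for length and GC content as described below, SOT16 had a count ratio of 0.992 (0.941 to 1.05). None of the 9 members was 2-fold apart, where 1.25% of the 15083 expressed nuclear genes (mean RPKM of 1 or more) passed 2-fold as higher and 0.663% as lower. At 1.5-fold, 1 member was higher (SUR1) and 1 lower (UGT74B1), against 6.24% and 4.71% of all genes. SUR1 no longer reached 1.5-fold with median-centred or TMM scaling, or after the adjustment by bins of length and GC described below. The log2 ratio was negative for 5 members and positive for 4, and below 0 for 46.2% of all genes. The median over the members was -0.07, against 0.03 over all expressed nuclear genes.

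Counting intervals lay wholly below 1 for 3 members and wholly above 1 for 3. The shares over all expressed nuclear genes were 15.6% and 18.7%. Such intervals narrow with depth, so genes with at least 1000 counts in both libraries together were also taken, a choice made after seeing the data. Of these, 32.6% had intervals below 1 and 40.4% above. The 5 members that deep were CYP79B2, CYP79B3, CYP83B1, UGT74B1 and SOT16, of which 3 lay below and 1 above. In the authors' deposited table, the FDR was 7.68e-16 for CYP79B2, 7.77e-21 for CYP79B3, 1.13e-15 for UGT74B1, 0.00885 for SOT16 and 0.0214 for CYP81F2. That FDR compares reads between these libraries and not genotypes. For the other 4 members it was above 0.05.

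**Figure D1:**
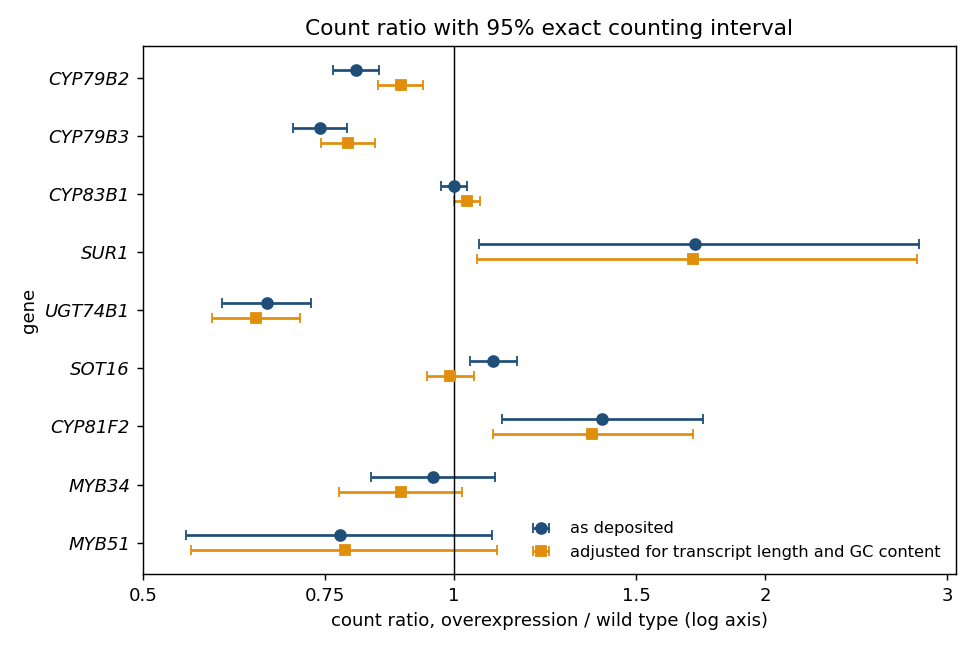
Count ratio of each member (overexpression over wild type, log axis) with its 95% exact conditional binomial interval, which covers counting error only, from 1 library per genotype. Circles are the values as deposited and squares those adjusted for the length and GC content of the transcript; CYP79B2, CYP79B3 and UGT74B1 lie below 1 in both.

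CYP79B2 (AT4G39950) had 3478 wild-type counts and 2704 counts in the overexpression library, or RPKM values of 248.1 and 199.5. It was lower in the overexpression library, at a count ratio of 0.804 (0.765 to 0.846) and a log2 ratio of -0.31. Its paralogue CYP79B3 (AT2G22330) had 2568 counts and 1844, or RPKM values of 193.2 and 143.5. It too was lower, at a count ratio of 0.743 (0.699 to 0.789) and a log2 ratio of -0.43. CYP79B3 stood at 0.779 of the RPKM of CYP79B2 in wild type and at 0.719 in the overexpression library. The ratio of their count ratios was 0.924 (95% exact conditional interval of the odds ratio, 0.854 to 0.999). Their coding sequences, of 1626 and 1632 bases, were 81.2% identical, and the longest exact run that their transcripts share was 32 bases. Read length, which decides whether reads from such runs can be placed, is not given in the labels. CYP79B2 lies on chromosome 4 from 18525042 to 18527602 and CYP79B3 on chromosome 2 from 9488413 to 9491404 (TAIR10.1), both on the plus strand and with 2 exons in the counted model.

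CYP83B1 (AT4G31500), the next enzyme of the pathway, had 9308 counts in wild type against 9005 in the overexpression library. Its RPKM values, 755.6 and 756.2, were the highest of the 9 genes in both libraries and nearly the same. The count ratio was 1.00 with a narrow counting interval of 0.972 to 1.03. Set against the entry step, the CYP83B1 level was 3.05 times that of CYP79B2 in wild type and 3.79 times in the overexpression library, a ratio of count ratios of 1.24 (1.17 to 1.32). Against CYP79B3 it was 3.91 times and 5.27 times, with 1.35 (1.26 to 1.44). Ratios of count ratios, for these and all other pairs, were not adjusted for transcript length and GC content. CYP83B1 lies on the minus strand of chromosome 4 from 15273410 to 15275404.

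SUR1 (AT2G20610), the C-S lyase shared by indolic and aliphatic glucosinolates, had 29 counts in the wild-type library and 48 in that of the overexpression line. The RPKM values of 2.45 and 4.21 were the lowest of the 9 genes in both libraries. The count ratio was 1.71 (1.06 to 2.82), the highest of the 9, but it rests on the fewest reads. SUR1 was also the 1 member with several transcript models in the table: model 1 had 27 and 48 counts and model 2 had 2 and 0. In TAIR10.1 the 2 models share 1668 exonic bases, 93.0% of model 1 and 95.4% of model 2. Across the table, the 2226 loci with several models had a median of 23 counts over both libraries. The median was 100 for the 19599 loci with 1 model. Whether the SUR1 level is understated because it has several models was not tested. The gene lies on the minus strand of chromosome 2 from 8877887 to 8880440. In the authors' deposited table, model 1 had an FDR of 0.0633.

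UGT74B1 (AT1G24100), the glucosyltransferase, had 1039 wild-type counts and 662 counts in the overexpression library. RPKM values were 93.6 and 61.7, which put the gene lowest among the members by ratio. The count ratio was 0.659 (0.597 to 0.727) and the log2 ratio -0.59. UGT74C1, a glucosyltransferase of aliphatic glucosinolates, had a similar count ratio of 0.675 (0.622 to 0.732), with 1488 and 971 counts. The level of UGT74B1 relative to UGT74C1 was 0.724 in wild type against 0.706 in the overexpression library, with a ratio of count ratios of 0.976 (0.858 to 1.11). UGT74B1 lies on the minus strand of chromosome 1 from 8525334 to 8527087.

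SOT16 (AT1G74100), which sulfates the indolic desulfoglucosinolate, had 2753 counts in wild type against 2905 in the overexpression library. RPKM values were 288.9 and 315.3, slightly higher in the overexpression library. The count ratio was 1.09 (1.04 to 1.15) as deposited and 0.992 (0.941 to 1.05) adjusted for length and GC content. SOT18, whose enzyme acts mainly on aliphatic forms, was lower in the overexpression library. It had 2928 counts against 2076 and a ratio of 0.733 (0.693 to 0.776). The SOT16 level therefore went from 0.895 to 1.33 times the SOT18 level, a ratio of count ratios of 1.49 (1.38 to 1.61). SOT16 is a gene of 1 exon on the minus strand of chromosome 1 from 27864345 to 27865694. SOT18 lies end to end with it on the plus strand, 151 bp away, with coding sequences 78.3% identical and a longest shared run of 32 bases. Against the preceding step, the ratio of count ratios of UGT74B1 to SOT16 was 0.604 (0.540 to 0.675).

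CYP81F2 (AT5G57220), which hydroxylates the indole ring on the way to a methoxylated glucosinolate of pathogen defence, had 142 counts in the wild-type library and 191 in that of the overexpression line. RPKM values were 11.7 and 16.2, higher in the overexpression library, at a count ratio of 1.39 (1.11 to 1.74). CYP81F4, an enzyme of the same subfamily that modifies the ring at another position, went the other way with 3616 and 2035 counts, a ratio of 0.582 (0.551 to 0.615). The level of CYP81F2 was thus 0.0392 of that of CYP81F4 in wild type against 0.0938 in the overexpression library. The ratio of their count ratios was 2.39 (1.90 to 3.01). Their coding sequences were 68.8% identical with a longest shared run of 14 bases. CYP81F2 spans 23187840 to 23189902 of chromosome 5, plus strand.

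The counting intervals of both regulators included 1. MYB34 (AT5G60890) had 440 wild-type counts and 406 counts in the overexpression library, RPKM values of 45.9 and 43.8 and a count ratio of 0.955 (0.832 to 1.09). MYB51 (AT1G18570) had 84 counts and 63, RPKM values of 7.19 and 5.58 and a count ratio of 0.776 (0.551 to 1.09). MYB51 was the lower of the pair in both libraries, at 0.157 and 0.127 of the MYB34 level. The interval of MYB51 holds both 1 and the ratio of UGT74B1. Both genes lie on plus strands with 3 exons, MYB34 on chromosome 5 from 24494291 to 24496371 and MYB51 on chromosome 1 from 6389399 to 6391386. MYB122, the third MYB of indolic glucosinolates, had 17 and 18 counts.

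**Figure D2:**
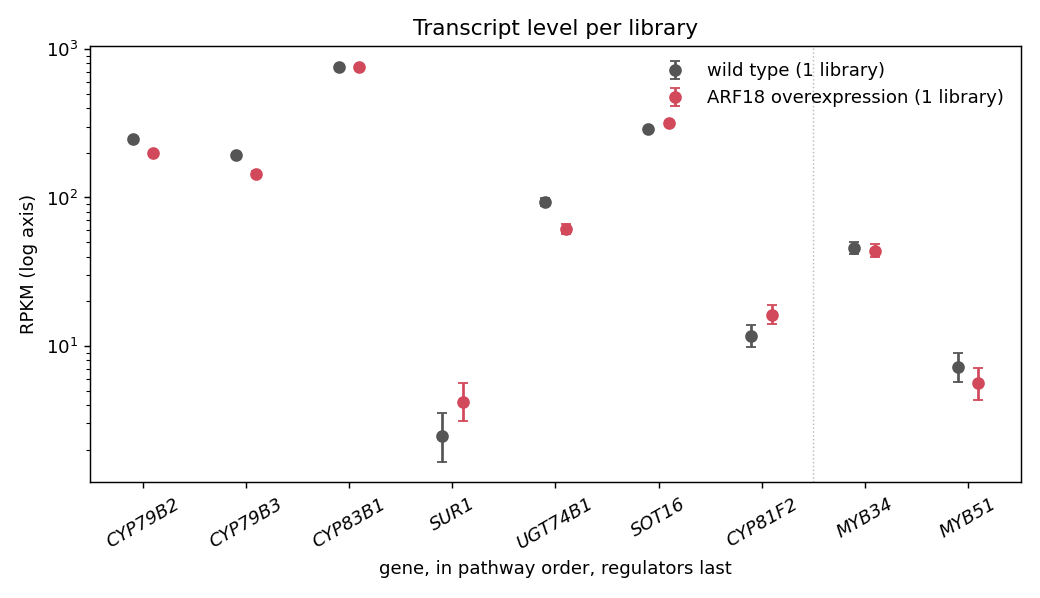
RPKM (log axis) of each member in the wild-type (grey) and overexpression (red) library, 1 library each, with exact Poisson intervals of the counts at 95%. CYP83B1 stands highest at 755.6 and 756.2 and SUR1 lowest at 2.45 and 4.21.

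The order of the levels was the same in both libraries: CYP83B1, SOT16, CYP79B2, CYP79B3, UGT74B1, MYB34, CYP81F2, MYB51 and SUR1. Poisson intervals of neighbours did not overlap, except for MYB51 and SUR1 in the overexpression library, at RPKM values of 5.58 and 4.21. Summed over the 9 genes, RPKM was 1647 in wild type against 1546 in the overexpression library.

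Across all expressed nuclear genes the log2 ratio went down with transcript length, with a Spearman's rho of -0.52 over 15083 genes, which are not independent replicates. The counted transcripts of the members are 1350 (SOT16) to 1986 bases (CYP79B2) long. The 5008 expressed genes of 1300 to 2000 bases had a median log2 ratio of -0.00024 and a middle range (quartiles) of -0.19 to 0.18. Adjusted for length and GC content, the log2 ratio went from -0.31 to -0.18 for CYP79B2 and from -0.43 to -0.34 for CYP79B3, and their adjusted count ratios were 0.888 (0.844 to 0.934) and 0.789 (0.743 to 0.838). UGT74B1 was at 0.643 (0.583 to 0.710) and CYP81F2 at 1.36 (1.09 to 1.70). SOT16 moved to 0.992 (0.941 to 1.05), so its interval then included 1, and CYP83B1 to 1.03 (0.999 to 1.06). With this adjustment 2 members had intervals above 1 and 3 below, against 10.8% and 12.2% of all genes.

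**Figure D3:**
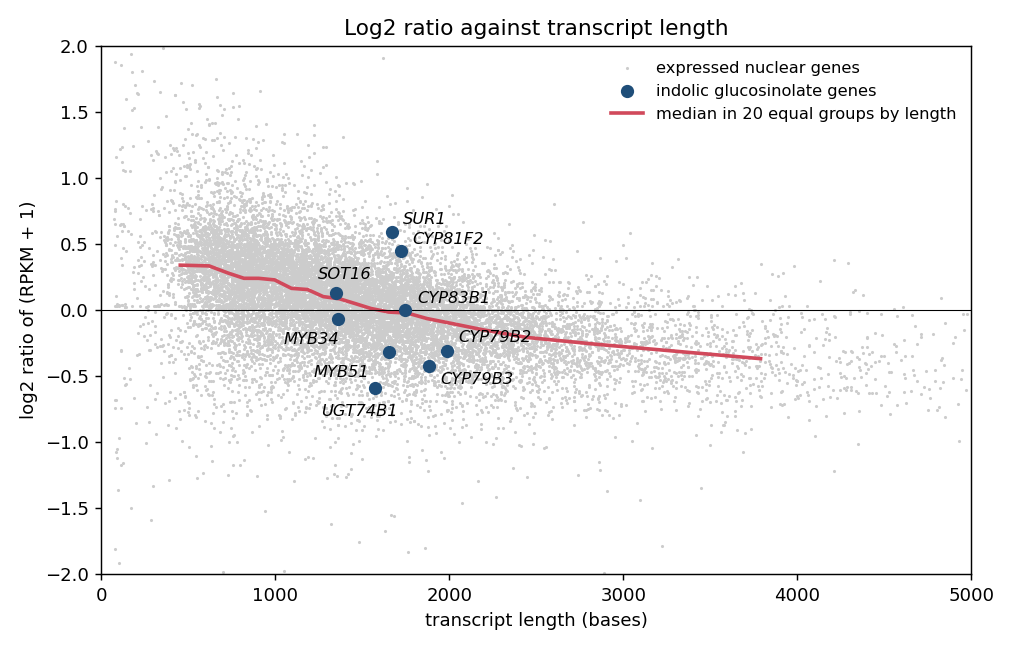
Log2 ratio of (RPKM + 1) against transcript length in bases for expressed nuclear genes (grey), with the median in 20 equal groups by length (line) and the 9 members (blue). Members span 1350 to 1986 bases, where the median lies near 0, and 131 of 15083 genes fall outside the axes.

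Other genes of the pathway and its surroundings were taken as 9 lists of 65 genes, of which 55 were expressed. No expressed gene of these lists was 2-fold apart, where 1.25% of all expressed nuclear genes were higher and 0.663% lower. At 1.5-fold, 4 were lower (CYP81F4, MYC3, MYC4 and PEN3) and none higher. The shares over all expressed nuclear genes at 1.5-fold were 4.71% lower and 6.24% higher. Counting intervals lay below 1 for 18 and above 1 for 11, where 15.6% and 18.7% of all expressed nuclear genes did. With the adjustment these counts were 21 and 8, where the shares over all genes were 12.2% and 10.8%. Many of the 55 had at least 1000 counts in both libraries together. Of all expressed nuclear genes that deep, 32.6% lay below 1 and 40.4% above as deposited. No adjusted share was taken for such deep genes. The same shares bear on the counts of each list below. The median log2 ratio of the 55 was 0.02, or -0.05 adjusted for length and GC content.

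Regulators other than the members included the lowest of these ratios. The bHLH factors MYC2, MYC3 and MYC4, which mediate jasmonate responses and act with the MYB factors on glucosinolate genes, had intervals wholly below 1. They were the 3 such genes among the 5 expressed ones of that list, and none lay above. MYC3 had 614 counts in wild type against 332 in the overexpression library, a ratio of 0.559 (0.488 to 0.640), and MYC4 had 301 and 164, a ratio of 0.564 (0.463 to 0.684). MYC2 had 563 and 395, a ratio of 0.726 (0.637 to 0.827). Adjusted for length and GC content, the log2 ratios of MYC2, MYC3 and MYC4 were -0.33, -0.78 and -0.61.

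Of the 4 genes of the remaining core steps, 3 had intervals above 1 as deposited, and with the adjustment 1 lay above and 1 below. GSTF9 and GSTF10, glutathione transferases linked to the sulfur conjugation step, had ratios of 1.20 (1.16 to 1.23) and 1.23 (1.19 to 1.27). GGP1, a gamma-glutamyl peptidase that trims the conjugate, had a log2 ratio of 0.13 (interval of the count ratio 1.02 to 1.18). Their transcripts are 971 to 1032 bases long, and their adjusted count ratios were 0.995 (0.967 to 1.02) for GSTF9, 1.05 (1.01 to 1.09) for GSTF10 and 0.926 (0.862 to 0.994) for GGP1, whose interval thus went from above 1 to below it. GGP3, another gamma-glutamyl peptidase gene, had 1.07 (0.847 to 1.35).

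Of the 8 ring modification genes, 2 had intervals above 1 (IGMT3 and IGMT4) and 1 below (CYP81F4). IGMT3 had a ratio of 1.30 (1.09 to 1.55) and IGMT4 1.62 (1.07 to 2.48), with an adjusted interval of 0.997 to 2.33. These methyltransferase genes are close copies: the coding sequences of IGMT1 and IGMT3 were 93.0% identical with a shared run of 80 bases, so reads may be split between them. Of 7 expressed tryptophan synthesis genes, 1 had an interval above 1, TSA1 (1.30, 1.21 to 1.40), and 2 below, TSB1 (0.790, 0.754 to 0.827) and ASA2 (0.855, 0.739 to 0.989). TSA1 and TSB1 encode the alpha and beta chains of tryptophan synthase, and ASA2 an anthranilate synthase alpha chain, whose adjusted interval of 0.785 to 1.05 included 1. The 4 genes of this list under the level filter, among them ASA1 with 10 and 9 counts, all had several transcript models.

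Of 7 sulfate activation and reduction genes, 2 had intervals above 1 and 1 below as deposited. With the adjustment 2 lay above and 3 below. APS3 had 1.29 (1.04 to 1.60), APR1 0.869 (0.813 to 0.927) and APR2 0.770 (0.543 to 1.09), and the list median was -0.09. The list includes APK2, an APS kinase that makes the sulfate donor used by SOT16. APK2 is the gene next to CYP79B2, 3436 bp away on the same strand, and had 1317 and 1291 counts. Its count ratio was 1.01 as deposited, with an interval that included 1, and 0.898 (0.831 to 0.970) with the adjustment. The 13 expressed aliphatic counterparts had 6 intervals below 1 and 1 above as deposited, and 7 and 1 with the adjustment. Their median was -0.05. Over all expressed nuclear genes, 15.6% lay below 1 and 18.7% above as deposited. The counterpart above 1 as deposited was GSTU20, a glutathione transferase, at 1.24 (1.18 to 1.30) and an adjusted log2 ratio of 0.04.

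The glucosinolate transporters were lower as deposited, while the expressed breakdown and export genes went different ways. All 3 glucosinolate transporters had intervals below 1, where 15.6% of all expressed nuclear genes did. All 3 had at least 1000 counts in both libraries together, and of genes that deep 32.6% lay below 1. GTR1 was at 0.734 (0.649 to 0.830), GTR2 at 0.883 (0.790 to 0.987) and GTR3 at 0.826 (0.761 to 0.897). With the adjustment 2 of the 3 lay below 1, and GTR2 had an adjusted log2 ratio of -0.01. Of the 3 expressed breakdown and export genes, PEN3, an ABC transporter of pathogen defence, had 0.661 (0.642 to 0.680), with a log2 ratio of -0.60 that was -0.18 adjusted. PYK10, the abundant beta-glucosidase of root ER bodies, had 0.832 (0.825 to 0.839), and PEN2, a myrosinase for indolic glucosinolates, 1.13 (1.04 to 1.22). TGG1, a leaf myrosinase, had 1 count in each library, and its relative TGG2 was absent from the deposited expression table. As deposited, the 5 expressed genes of other aldoxime fates all had log2 ratios above 0 (median 0.17). Over all expressed nuclear genes, 46.2% lay below 0. Counting intervals of 4 of the 5 included 1, and not all 5 log2 ratios stayed above 0 with the adjustment. NIT3, a nitrilase, had 1.20 (1.08 to 1.33), while PAD3, of camalexin synthesis, had 1.37 (0.933 to 2.03) and AMI1, an amidase, 1.13 (0.964 to 1.33).

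**Figure D4:**
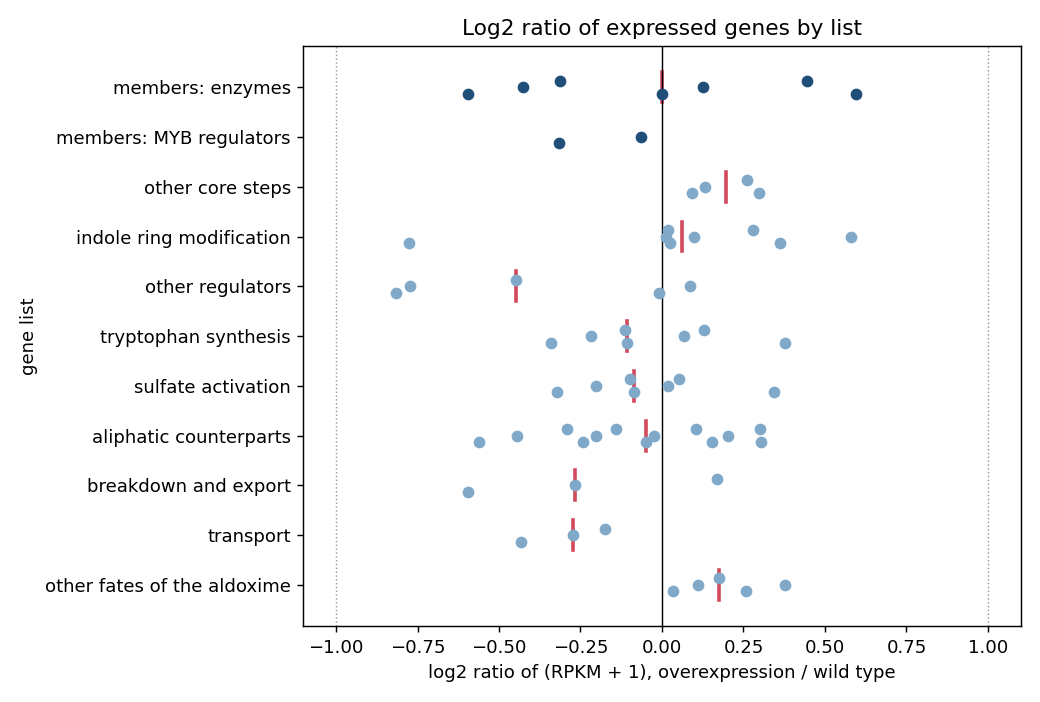
Log2 ratio of (RPKM + 1) of each expressed gene, by list, with the members in dark blue, list medians of 3 or more genes as bars and 2-fold marked by dotted lines. No gene shown reaches 2-fold, and the lowest is MYC3 at -0.82.

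Transcripts from both the root and the shoot marker lists were counted in these libraries, which the tissue label calls whole seedlings. The share of root and shoot in each library was not measured. Of 13 root markers, all of them expressed, 6 had intervals above 1 and 3 below, or 6 and 1 with the adjustment. Over all expressed nuclear genes, 18.7% lay above and 15.6% below, or 10.8% and 12.2% adjusted. No root marker was at 0, with RPKM values of 0.868 to 88.5 in wild type and 2.69 to 158.9 in the line. The summed RPKM of the root markers was 231.4 in wild type against 318.5 in the overexpression library. This sum leans on CASP1, the highest of them, at 88.5 and 158.9. TIP2;3 had 2.74 (1.96 to 3.89), WOX5 2.59 (1.42 to 4.95) and LRX1 0.389 (0.319 to 0.473). Of 8 shoot markers, the summed RPKM of the 6 expressed was 1911 and 1872, with RBCS1A at 1.20 (1.15 to 1.26), LHCB1.1 at 0.821 (0.772 to 0.874) and AS1 at 0.808 (0.672 to 0.972). STM had 1 and 3 counts, and FAMA was absent from the deposited expression table. Their part in the values of the glucosinolate genes was not tested. In whole seedlings, fewer cells that express a gene and less RNA per cell cannot be told apart.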

How the data were processed

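The authors deposited raw read counts and RPKM values per transcript model of TAIR 10, the build in the submitters' processing notes. For aligner, counter and strandedness the sources used here say nothing. The deposited RPKM matched counts, length and library totals within 3.23e-06 percent. The log2 ratio deposited by the authors equals that of their RPKM columns, and a count of 0 is written there as 0.01, set to 0 here. The authors' deposited p-values and FDR come from an unnamed test on reads.

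The 24295 models were summed to 21825 loci, of which 21649 were in RefSeq TAIR10.1, whose gene models differ in part. Log2 ratios used a pseudocount of 1 RPKM, over the 15083 nuclear genes averaging at least 1 RPKM. The adjustment subtracted medians of 50 bins of length, then of 50 bins of GC content. A confidence of 95% was used for intervals. Alternatives were other pseudocounts, filters, thresholds and scalings. Members and lists were chosen with earlier results of these data known. Named genes are the members, ARF18 and in each list the 3 expressed genes farthest from a log2 ratio of 0. APK2, GGP3, MYB122, ASA1, IGMT1, TGG1, TGG2, CASP1, STM and FAMA were named after their values were seen. Steps were tested on simulated data. No gene of similar pattern was sought, since 2 libraries give 1 ratio per gene. Python 3.11.15, numpy 2.4.6, pandas 2.3.3, scipy 1.17.1, matplotlib 3.10.9 and biopython 1.88 were used.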

Additional observations from a re-analysis of the deposited data

How the results depend on the processing

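No paired analysis was possible because wild type and line hold a single library each. For the same reason no library could be left out. Of 88 alternative log2 ratios of single members, 85 stayed within the counting interval. The 3 that moved outside it were those of CYP79B2 (-0.18), CYP83B1 (0.05) and SOT16 (0.01) after adjustment for length and GC content. The 85 include values that could not move. Other filters and leaving out SUR1 cannot change the ratio of a single member. Taking only the highest transcript model could change that of SUR1 alone. No log2 ratio of a member with an interval off 1 changed sign, while the adjusted count ratio of SOT16, 0.992, lay on the other side of 1. The median over the members was -0.19 with a minimum mean of 5 RPKM and also without SUR1, a setting chosen after seeing the data. The number of members at least 2-fold higher or lower was 0 under each scaling, filter and pseudocount, and by construction 1 and 1 at a 1.5-fold threshold. The 1 member 1.5-fold higher, SUR1, was 0 members with a pseudocount of 5 RPKM, with median-centred or TMM scaling, after the adjustment, with a minimum mean of 5 RPKM and without SUR1. The 1 member 1.5-fold lower, UGT74B1, was 0 with a pseudocount of 5 RPKM and 1 otherwise. TMM and median-centred scaling moved log2 ratios by about -0.03. Depth limits MYB51 and SUR1 most.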
